A study of Mus musculus with 8 samples.

Results

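The genes described here encode 10 secreted proteins of the basement membrane: the laminin chains Lama2, Lama4, Lama5, Lamb1, Lamb2 and Lamc1, the nidogens Nid1 and Nid2, and the heparan sulphate proteoglycans Hspg2 (perlecan) and Agrn (agrin). They were chosen by name, and each was represented on the array by exactly 1 probe set annotated to a single symbol, so that 10 of the 19938 genes with such a probe set are covered. Adipose precursors (APs) came from male C57BL/6J mice, 7 to 8 weeks old, that had eaten either a high fat diet (HFD) or a standard diet (SD) for 3 days. Visceral cells (viAPs) were taken from perigonadal fat and subcutaneous cells (scAPs) from inguinal fat. In both depots magnetic beads removed cells carrying CD45 or CD31 and then retained those carrying SCA-1. RNA was measured on 8 Affymetrix Mouse Gene 1.0 ST arrays, with 2 arrays for each of HFD viAPs (replicates 5 and 6), SD viAPs (3 and 4), HFD scAPs (7 and 8) and SD scAPs (1 and 2). A pool of 3 mice supplied the RNA of each array.

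Laminins are trimers of an alpha, a beta and a gamma chain that assemble into sheets on the surface of cells. Nidogens bind the laminin sheet to the network of type IV collagen, and perlecan and agrin add heparan sulphate chains that hold growth factors and contact cell surface receptors. In adipose tissue such sheets surround each fat cell and each blood vessel, and both precursor cells and vascular cells can secrete their components.

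Levels are log2 of the deposited array intensity, a change is a difference of mean log2 levels, and a gene was called where the adjusted p of limma's moderated test was under 0.05 (Benjamini-Hochberg). With 2 pools a group, p-values measure only the spread between these pools, and precision is limited by how few arrays there were. The array labelled SD viAP replicate 4 stood apart from its group in depot genes. Tbx15, a transcription factor of subcutaneous fat, was at 3.91 to 4.09 in HFD viAPs, at 4.70 (replicate 3) and 9.77 (replicate 4) in SD viAPs, at 9.53 to 9.63 in HFD scAPs and at 9.34 to 9.67 in SD scAPs. Tcf21, a transcription factor of visceral fat, was at 10.43 to 10.61 in HFD viAPs, at 9.61 and 5.32 in SD viAPs, at 5.21 to 5.36 in HFD scAPs and at 5.04 to 5.52 in SD scAPs. This array enters every fit, and some of the counts and values that its removal moved are also given without it. The precursor markers Pdgfra (11.01 to 11.56) and Cd34 (11.38 to 12.37) were high on all 8 arrays. The leukocyte gene Ptprc stood at 4.81 to 5.67 and the fat cell gene Adipoq at 4.58 to 5.98, against array medians of 5.58 to 5.75. Other such genes stood higher, as in SD scAPs Cd68 at 6.66 to 7.03 and Plin1 at 6.54 to 6.67. Of 10 leukocyte markers 2 to 4 were above the median of an array, and of 10 mature fat cell markers 4 to 7. Bulk arrays cannot tell fewer cells of a type from less RNA per cell.

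Promoter sequences are shown for 3 genes that rose in HFD viAPs (Hspg2, Nid1 and Lamb2) and for Agrn, which did not pass the test, to set their sequence beside their response. RefSeq promoter windows (mouse build GRCm38.p6) matched 7 of the 10 genes. The bases printed run from 250 to 56 before the annotated start, 195 in all, read 5′ to 3′ on the gene's strand. Capitals mark the GC box GGGCGG on either strand, with overlapping matches counted separately. Hspg2 lies at chr4:137468553-137468747 on the plus strand, Nid1 at chr13:13437352-13437546 on the plus strand, Lamb2 at chr9:108479612-108479806 on the plus strand and Agrn at chr4:156197544-156197738 on the minus strand.
Hspg2: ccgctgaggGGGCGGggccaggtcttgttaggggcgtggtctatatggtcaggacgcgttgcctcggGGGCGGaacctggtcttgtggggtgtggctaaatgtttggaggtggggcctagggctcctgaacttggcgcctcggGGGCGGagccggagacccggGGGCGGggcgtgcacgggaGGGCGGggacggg
Nid1: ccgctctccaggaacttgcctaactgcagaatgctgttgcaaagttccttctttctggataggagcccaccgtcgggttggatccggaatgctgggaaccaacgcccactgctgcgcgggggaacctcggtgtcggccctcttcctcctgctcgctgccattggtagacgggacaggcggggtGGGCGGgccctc
Lamb2: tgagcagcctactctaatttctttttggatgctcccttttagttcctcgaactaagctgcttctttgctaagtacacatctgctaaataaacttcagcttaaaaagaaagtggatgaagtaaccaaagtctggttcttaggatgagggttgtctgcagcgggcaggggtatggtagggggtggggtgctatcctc
Agrn: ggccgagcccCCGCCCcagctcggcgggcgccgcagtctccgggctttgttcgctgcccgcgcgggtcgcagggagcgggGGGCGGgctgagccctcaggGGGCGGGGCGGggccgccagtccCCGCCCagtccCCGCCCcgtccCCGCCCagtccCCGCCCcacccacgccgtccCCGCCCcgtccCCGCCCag

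The GC box occurred 5 times in the Hspg2 window, 1 time in Nid1 and 0 times in Lamb2, all of which rose in HFD viAPs. It occurred 10 times in the printed Agrn window and 0 times in another Agrn window that lay inside the gene. Agrn was not called. In windows not printed, the GC box occurred 2 times in Lamb1 and 0 times in Lama2, both called higher. It occurred 2 times in Lama5, which was not called. At least 1 GC box stood in 23.8% of 32851 promoter windows of the same length. The motif GGAATG, the core bound by TEAD factors, occurred 1 time in Nid1 and in 10.4% of all windows. A CCAAT box also occurred 1 time in Nid1, 1 time in Lamb1 and in 27.6% of all windows. The sequence TATAAA was found in none of these windows and in 8.95% of all windows. A match is a description of the letters and not a measured binding site.

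In viAPs, 8 of the 10 genes were higher after 3 days of HFD, 0 were lower, and Lama5 and Agrn did not pass the test. The same 8 genes had both HFD arrays above both SD arrays, an order found in 79.7% of the filtered probe sets. Lama2, Lamb1, Lama4 and Lamc1 rose by 2-fold or more, and Hspg2, Lamb2, Nid1 and Nid2 by less. Among the 2438 probe sets tested in the filtered set, 65.4% were called higher and 4.47% lower, so a rise as such was common in this comparison, and 16.2% rose by at least 2-fold. Over all 21789 probe sets with 1 symbol, 8.45% were called higher, and the same 8 genes passed when p was adjusted over all of them. The median change was 0.85 for the 10 genes, against 0.70 for the filtered set, 0.30 for the 7315 expressed probe sets (those whose log2 level passed 7 on 3 arrays or more), and -0.05 for all probe sets. The filter keeps the most variable expressed probe sets, so the 8 genes inside it had to vary between arrays. Agrn varied too little to enter (a mean absolute deviation of 0.191, against the cut of 0.261), and Lama5 was under a log2 level of 7 on every array. The median change of the 8 filtered genes was 1.01 without SD viAP replicate 4, where that of the filtered set was 0.63. Without SD viAP replicate 4 the same 8 genes were called, while without HFD viAP replicate 5 none was, and only 9 of 2372 probe sets were then called higher.

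In scAPs, 6 of the 10 genes were higher after HFD (Lama2, Lama4, Lamb1, Lamc1, Nid2 and Hspg2), 0 were lower and 4 were not called. Lamb1 and Hspg2 rose by at least 2-fold. For 9 genes, all but Agrn, both HFD arrays were above both SD arrays, as for 65% of the filtered probe sets. The background was lower than in viAPs, with 24.8% of the filtered probe sets called higher, 0.943% lower and 4.1% higher by at least 2-fold. The median change was 0.69 for the 10 genes, against 0.44 for the filtered set, 0.18 for the expressed probe sets and -0.0045 for all probe sets. Adjusted over all 21789 probe sets, of which 1.06% were called higher, 4 genes still passed: Lama2, Lamb1, Nid2 and Hspg2. These calls depended on single arrays, since 0 genes were called without any one of SD scAP replicate 2, HFD viAP replicates 5 and 6, or HFD scAP replicates 7 and 8. The loss was general, as 0 to 21 filtered probe sets were called higher under those 5 settings. Without SD scAP replicate 1 or SD viAP replicate 4, 7 genes were called, where 39.0% and 46.6% of filtered probe sets were called higher. The viAP and scAP comparisons share no array but share 1 estimate of the spread.

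**Figure D1:**
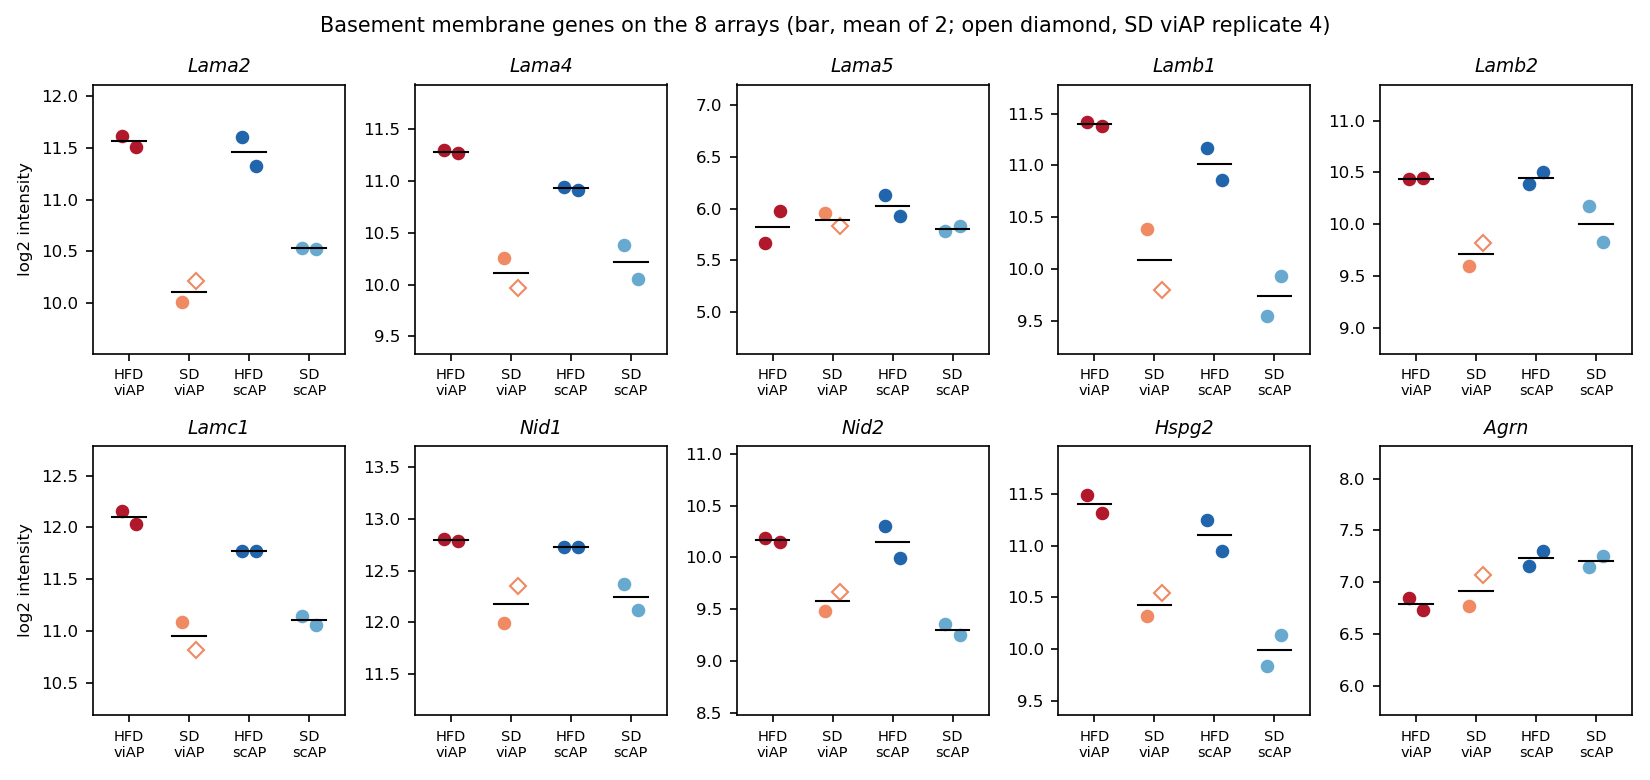
Log2 intensity of each of the 10 genes (1 panel a gene) on each of the 8 arrays, grouped as HFD viAP, SD viAP, HFD scAP and SD scAP, with points for arrays, bars for group means and an open diamond for SD viAP replicate 4. In 8 panels both HFD viAP arrays lie above both SD viAP arrays, and the Lama5 and Agrn panels are the exceptions.

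Among the alpha chains, Lama2, best known from the laminin around muscle fibres and nerves, changed the most in viAPs. Its log2 level was 11.62 and 11.51 in HFD viAPs, against 10.01 and 10.21 in SD viAPs. In scAPs it was 11.60 and 11.33 after HFD, against 10.54 and 10.52 after SD. The diets did not overlap in either depot, and the HFD arrays of both depots stood between 11.33 and 11.62. Lama2 rose by 1.45 ± 0.18 in viAPs (SE, limma adjusted p = 0.00333), a 2.74-fold change, and by 0.94 ± 0.18 in scAPs (adjusted p = 0.0202), a 1.91-fold change. These changes were larger than those of 98.9% of expressed probe sets in viAPs and 98.0% in scAPs. Lama4 encodes the short alpha chain found around vessels and fat cells. Its level was 11.30 and 11.27 in HFD viAPs, against 10.25 and 9.97 in SD viAPs, and 10.94 and 10.92 in HFD scAPs, against 10.39 and 10.05 in SD scAPs. The highest SD level, 10.39, lay below every HFD level. Lama4 rose by 1.17 ± 0.19 in viAPs (limma adjusted p = 0.00487) and by 0.71 ± 0.19 in scAPs (adjusted p = 0.0359). Lama5, the long alpha chain of most mature epithelial and vascular basement membranes, stayed near the array medians. It was at 5.67 and 5.98 in HFD viAPs, against 5.95 and 5.83 in SD viAPs, and at 6.13 and 5.93 in HFD scAPs, against 5.78 and 5.83 in SD scAPs. The viAP groups overlapped, and the change of -0.07 had a 95% interval of -0.41 to 0.27 in viAPs. In scAPs both HFD arrays were higher, with a change of 0.22 and an interval of -0.12 to 0.56 (limma adjusted p = 0.50).

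Of the beta chains, Lamb1 had the larger change in both depots. Lamb1, the beta chain of most embryonic and many adult laminins, was at 11.42 and 11.38 in HFD viAPs, against 10.38 and 9.79 in SD viAPs. In scAPs it was at 11.17 and 10.86 after HFD, against 9.54 and 9.93 after SD. The lowest HFD level was 10.86 and the highest SD level 10.38, with the widest gap between replicates in SD viAPs. The change was 1.31 ± 0.25 in viAPs (limma adjusted p = 0.00597) and 1.28 ± 0.25 in scAPs (adjusted p = 0.0202), which are 2.48-fold and 2.43-fold. Without SD viAP replicate 4, the lower of that pair, the viAP change was 1.01 and remained called. Lamb2, the beta chain enriched at the neuromuscular junction and in the kidney filter, was at 10.44 on both HFD viAP arrays, against 9.59 and 9.82 in SD viAPs. It was at 10.39 and 10.51 in HFD scAPs, against 10.18 and 9.83 in SD scAPs. Neither depot showed overlap between the diets, but the scAP gap between nearest arrays was narrow. Lamb2 rose by 0.73 ± 0.19 in viAPs (limma adjusted p = 0.0125), while its scAP change of 0.45, with a 95% interval of 0.01 to 0.88, missed the threshold (adjusted p = 0.101). Lamc1 encodes the gamma chain that nearly all laminins share. It was at 12.16 and 12.03 in HFD viAPs, against 11.08 and 10.81 in SD viAPs, and at 11.78 on both HFD scAP arrays, against 11.15 and 11.06 in SD scAPs. The order was HFD viAPs, then HFD scAPs, then the SD arrays of both depots, which overlapped. Lamc1 rose by 1.15 ± 0.17 in viAPs (limma adjusted p = 0.00474) and by 0.68 ± 0.17 in scAPs (adjusted p = 0.033).

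The nidogens changed less than most laminin chains in viAPs. Nid1, the more widely expressed nidogen, was at 12.81 and 12.78 in HFD viAPs, against 11.999 and 12.35 in SD viAPs. In scAPs it was at 12.73 on both HFD arrays, against 12.37 and 12.12 in SD scAPs. All HFD levels were above all SD levels. Nid1 rose by 0.62 ± 0.19 in viAPs (limma adjusted p = 0.0201), and its scAP change of 0.48, with a 95% interval of 0.05 to 0.91, was not called (adjusted p = 0.0841). Nid2, a second nidogen with overlapping function, was at 10.18 and 10.14 in HFD viAPs, against 9.49 and 9.66 in SD viAPs. It was at 10.31 and 9.997 in HFD scAPs, against 9.35 and 9.25 in SD scAPs. Nid2 rose by 0.59 ± 0.18 in viAPs (limma adjusted p = 0.021) and by 0.85 ± 0.18 in scAPs (adjusted p = 0.0236). Its viAP change exceeded that of 75.8% of expressed probe sets and its scAP change that of 97.0%, but the difference between the depots' changes, -0.26 with a 95% interval of -0.85 to 0.33, was not called.

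The proteoglycans differed from each other. Hspg2 encodes perlecan, which binds laminin, nidogen and type IV collagen and carries heparan sulphate. It was at 11.49 and 11.32 in HFD viAPs, against 10.32 and 10.54 in SD viAPs, and at 11.25 and 10.95 in HFD scAPs, against 9.84 and 10.13 in SD scAPs. All 4 HFD arrays exceeded all 4 SD arrays, and the SD viAP arrays lay above the SD scAP arrays. Hspg2 rose by 0.97 ± 0.20 in viAPs (limma adjusted p = 0.00714) and by 1.11 ± 0.20 in scAPs (adjusted p = 0.0194), which are 1.96-fold and 2.16-fold. Agrn encodes agrin, the organiser of the neuromuscular junction that also binds laminin and dystroglycan. It was at 6.85 and 6.73 in HFD viAPs, against 6.77 and 7.07 in SD viAPs, and at 7.16 and 7.30 in HFD scAPs, against 7.15 and 7.26 in SD scAPs. The diets overlapped in both depots. The change was -0.13 in viAPs (95% interval -0.46 to 0.20) and 0.03 in scAPs (-0.30 to 0.36). The viAP interval lies below the estimated change of every called gene in viAPs, of which the smallest was 0.59 (Nid2). It overlaps the interval of Nid2, 0.18 to 1.01, and a difference between genes was not tested.

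**Figure D2:**
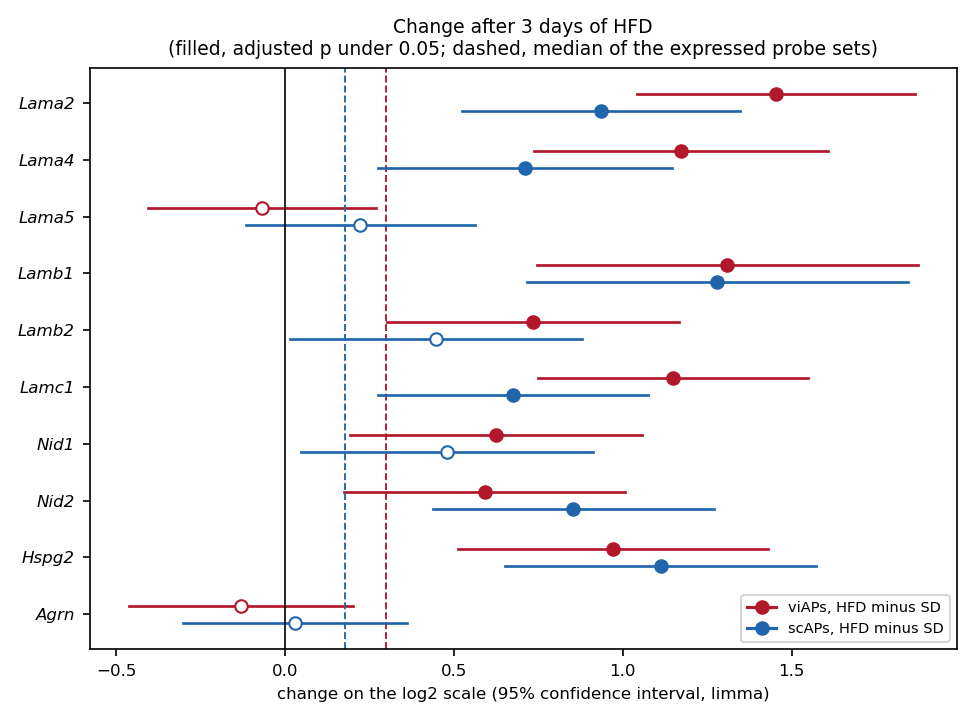
Change of each gene after HFD against SD on the log2 scale, with its 95% confidence interval from limma, in viAPs and in scAPs, with filled points for called genes and dashed lines at the median of the expressed probe sets. The viAP intervals of 8 genes lie above 0, while those of Lama5 and Agrn span it.

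The size of the diet change was then compared between depots, as the viAP change minus the scAP change. It was 0.52 for Lama2 (95% interval -0.06 to 1.101), 0.46 for Lama4 (-0.15 to 1.08) and 0.47 for Lamc1 (-0.09 to 1.04). For Lamb1 it was 0.03, but the interval of -0.77 to 0.83 leaves room for a difference in either direction. For Hspg2 it was -0.14 (-0.79 to 0.51). The remaining 5 genes had differences between -0.29 (Lama5) and 0.29 (Lamb2). In limma's test 0 of the 10 genes were called, with adjusted p between 0.462 and 0.968, and 0 had an unadjusted p under 0.05. The background for this comparison was 0% of the filtered set, in which 270 probe sets had an unadjusted p under 0.05, and 0.00459% of all probe sets.

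Levels were also compared between depots within each diet. After HFD, 0 of the 10 genes were called between viAPs and scAPs, against a background of 4.18% of filtered probe sets called higher and 2.79% lower in HFD viAPs, and 1 gene had an unadjusted p under 0.05. Both HFD viAP arrays were above both HFD scAP arrays for Lama4, Lamb1, Lamc1, Nid1 and Hspg2, 5 of the 10 genes, where 40.4% of filtered probe sets were so ordered. The differences were 0.36 for Lama4 (95% interval -0.08 to 0.79), 0.38 for Lamb1, 0.32 for Lamc1 and 0.30 for Hspg2. With only the HFD arrays in the fit, 1 of the 10 genes passed, Lama4 (adjusted p = 0.0468), where 19.2% of filtered probe sets were called higher. Agrn ran the other way, at -0.45 (-0.78 to -0.11, limma adjusted p = 0.252). On SD, 0 genes were called, as were 0% of the filtered set, and 1 gene had an unadjusted p under 0.05. That gene was Lama2, at -0.42 in SD viAPs minus SD scAPs (95% interval -0.83 to -0.01, adjusted p = 0.205). The SD depot difference was 0.44 for Hspg2 (-0.02 to 0.90), 0.35 for Lamb1 and -0.29 for Agrn. Without SD viAP replicate 4, it was -0.52 for Lama2 (adjusted p = 0.0911), 0.65 for Lamb1 (adjusted p = 0.0758), 0.33 for Hspg2 and -0.44 for Agrn. None of the 10 genes was called then, whereas 225 of 2406 filtered probe sets were called higher and 325 lower. The diet and depot comparisons of a group share that group's arrays and are not independent.

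Over the 8 arrays the 8 genes inside the filter followed a like profile. Their median deviation from each gene's own mean was 0.67 and 0.57 in HFD viAPs, against -0.40 and -0.50 in SD viAPs, and 0.41 and 0.29 in HFD scAPs, against -0.36 and -0.49 in SD scAPs. The same median over all expressed probe sets was 0.16 and 0.10 in HFD viAPs, against -0.13 and -0.18 in SD viAPs, and 0.07 and 0.14 in HFD scAPs, against 0.02 and -0.17 in SD scAPs. Pairs of the 8 genes had Pearson correlations from 0.68 (Lamb1 with Lamb2) to 0.99 (Lama4 with Lamc1), with a median of 0.88 over 28 pairs. The filter had kept these 8 genes for their variation between arrays, which was not asked of all expressed probe sets. Outside it, correlations with the 8 ran from -0.42 to 0.09 for Agrn and from 0.096 to 0.36 for Lama5. These values describe 8 arrays that fall into 4 groups and share the diet difference.

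For each gene called after HFD, the 3 expressed probe sets with the most similar profile were taken among 7314. For the laminin alpha chains these were Chd1, Shc1 and Gabpb1 for Lama2 (r up to 0.993) and Reps1, Cct2 and Rfk for Lama4 (up to 0.996). For the beta and gamma chains they were Slc24a3, Nfia and Sipa1 for Lamb1 (up to 0.994), Nucb1, Adipor1 and Serf2 for Lamb2 (up to 0.993) and Cct2, Calm2 and Fmnl2 for Lamc1 (up to 0.997). For the nidogens they were Pccb, Rfng and Dym for Nid1 (up to 0.993) and Amotl1, Simc1 and Sympk for Nid2 (up to 0.997). For perlecan they were Fndc3b, Usp25 and Gadd45b for Hspg2 (up to 0.985). None of the 10 genes, and only Cct2 more than 1 time, appeared among these neighbours.

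**Figure D3:**
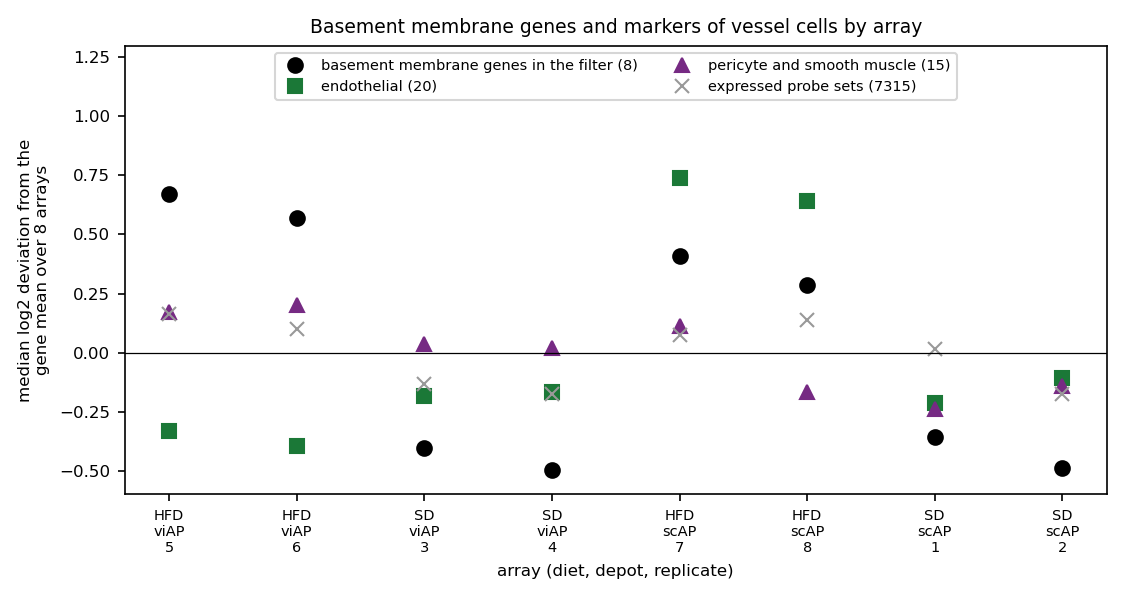
Median deviation from each gene's own 8-array mean, in log2 units, on each array, for the 8 filtered basement membrane genes, the expressed probe sets and the endothelial and pericyte marker lists. The basement membrane genes are high on all 4 HFD arrays, while the endothelial list is high on the HFD scAP arrays alone.

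The chains that complete other laminins were at low levels. Lama1, Lama3, Lamb3 and Lamc3, 4 of the 5 listed, were measured and 0 were called in either diet comparison, with median changes of -0.18 in viAPs and 0.06 in scAPs. Without SD viAP replicate 4, 1 of them, Lamc3, was called in scAPs, at 0.72. The share of probe sets called higher, to be read beside the counts of the lists that follow, was 65.4% of the filtered set and 8.45% of all in viAPs, and 24.8% and 1.06% in scAPs. Of 10 basement membrane collagens, 5 rose in viAPs and 3 in scAPs, and 0 fell, and 4 of the 10 were in the filter. Their median changes of 0.66 and 0.41 were near those of the filtered set, 0.70 and 0.44. Without SD viAP replicate 4 the viAP median of these collagens was lower, at 0.37, against 0.63 for the filtered set. The 7 expressed collagens had medians of 0.69 and 0.50 on all arrays, against 0.30 and 0.18 for all expressed probe sets. Col4a1 and Col4a2, the chains of the common type IV collagen that nidogens tie to laminin, rose in viAPs by 0.87 (limma adjusted p = 0.0101) and 1.00 (adjusted p = 0.00919). In scAPs they rose by 1.06 (adjusted p = 0.0203) and 1.25 (adjusted p = 0.0194). Col15a1, a collagen that bridges basement membrane and stroma, rose by 0.96 in viAPs (adjusted p = 0.0161) and 1.47 in scAPs (adjusted p = 0.0194). Col8a1, a short chain collagen of vessel walls and the cornea, was at 9.16 to 9.26 in HFD viAPs, against 6.60 to 6.73 in SD viAPs, and at 6.09 to 6.27 in HFD scAPs, against 6.54 to 6.58 in SD scAPs. It rose by 2.55 in viAPs (adjusted p = 0.000432) and its scAP change was -0.38 (adjusted p = 0.185). The difference between depots, 2.93, passed the test (adjusted p = 0.00242) but not without SD viAP replicate 4 (3.00, adjusted p = 0.0561).

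Among 20 other basement membrane proteins, of which 7 were in the filter, 6 rose in viAPs and 2 in scAPs, against 65.4% and 24.8% of the filtered set. Smoc2, a calcium-binding matrix protein, rose by 1.22 in viAPs and 1.36 in scAPs. Pxdn, the peroxidase that cross-links type IV collagen, rose by 1.09 in viAPs, and Fbln2, a fibulin that binds laminin and nidogen, by 0.78 in scAPs. Vwa1, which binds perlecan, and Hmcn2, a hemicentin, rose by 1.16 and 1.14 in viAPs, but without SD viAP replicate 4 these were 0.60 (limma adjusted p = 0.0528) and 0.55 (adjusted p = 0.0899), and the list had 3 called. In HFD viAPs against HFD scAPs, Hmcn2 was higher by 2.28, Vwa1 by 1.94 and Hmcn1 by 0.99. Of 16 genes listed as laminin and agrin receptors, 4 were in the filter and 4 rose in viAPs. The list also holds Cd44, which is best known as the hyaluronan receptor. Itgb1, the shared beta integrin chain, rose by 1.26 and Cd44 by 1.20. The syndecans Sdc2 and Sdc3 rose by 0.84 (0.56 without SD viAP replicate 4) and 0.74. In scAPs 1 was called, Cd44 at 0.80, and without SD viAP replicate 4 there were 4, with Itgb1, Sdc2 and Sdc3 added. Between depots after HFD, Sdc3 was higher in viAPs by 0.99 and the laminin-binding integrin chain Itga6 had a change of -1.11 (adjusted p = 0.0481, and 0.0799 without SD viAP replicate 4). Of 8 genes that build the laminin-binding sugar of dystroglycan, 1 rose in viAPs, Rxylt1 at 0.63, which missed the threshold without SD viAP replicate 4 (0.57, adjusted p = 0.068). In scAPs Rxylt1 was called only without that array, at 0.65.

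Of 15 genes that make or edit heparan sulphate, the sugar of perlecan and agrin, 6 were in the filter. Of the 15, 4 rose in viAPs and 1 in scAPs (2 without SD viAP replicate 4, with Ext1), against 65.4% and 24.8% of the filtered set. The sulphatases Sulf1 and Sulf2 rose by 1.28 and 0.83 in viAPs and the chain polymerase Ext1 by 1.06 (0.73 without SD viAP replicate 4). The sulphotransferase Hs6st1 rose by 1.16 in viAPs and 0.55 in scAPs, and was higher by 0.81 in HFD viAPs than in HFD scAPs. Of 13 proteases that cut basement membrane proteins, 8 of them in the filter, 4 rose and 1 fell in viAPs, and 3 rose in scAPs. Adamts4, Adamts5 and Adamts1, which cleave proteoglycans, rose by 1.63, 1.14 and 1.03 in viAPs. The Adamts4 change was 1.14 without SD viAP replicate 4. In scAPs Adamts1 rose by 1.02, Prss12 by 0.84 and Adamts5 by 0.80. Mmp3, a stromelysin that is itself a depot gene, had a viAP change of -3.70 (limma adjusted p = 0.0105) and of -1.92 without SD viAP replicate 4 (adjusted p = 0.00281). Prss12, which cleaves agrin, Tll1 and Mmp3 were lower in HFD viAPs than in HFD scAPs, with changes of -1.41, -1.25 and -5.45. Of these, Tll1 was not among the expressed probe sets and stood at 5.61 to 6.04 in SD scAPs.

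**Figure D4:**
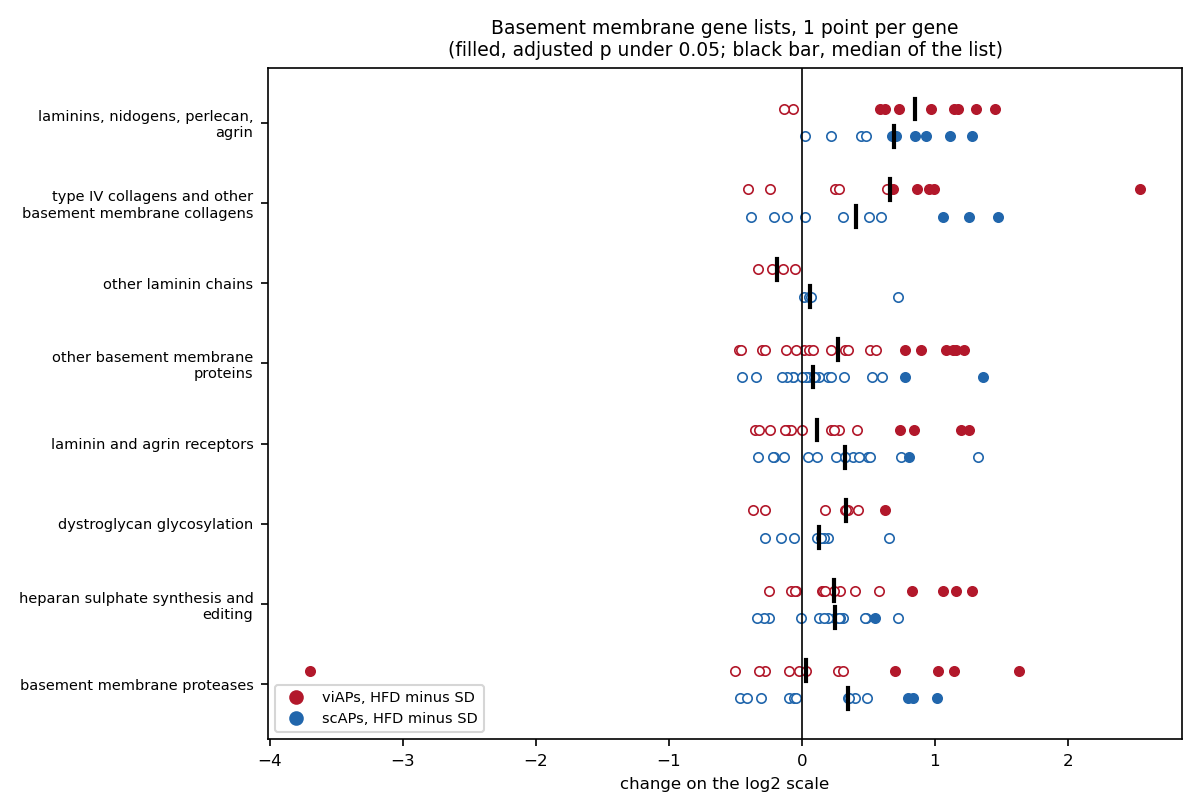
Change after HFD against SD on the log2 scale for each measured gene of the basement membrane lists, in viAPs and in scAPs, with filled points for genes called by limma. The basement membrane collagens have medians of 0.66 in viAPs (0.37 without SD viAP replicate 4, not drawn) and 0.41 in scAPs. The other laminin chains have medians of -0.18 and 0.06.

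Vascular cells also make these proteins, and their markers moved with diet in scAPs. Of 20 endothelial markers, 4 of them in the filter, 11 rose in scAPs and 0 fell, against 24.8% of the filtered set and 1.06% of all probe sets called higher. Without SD viAP replicate 4 the count was 6, Cdh5 and Pecam1 among them. For 18 both HFD scAP arrays were above both SD scAP arrays, an order found in 65% of the filtered probe sets. The median change of the 20 was 0.98 in scAPs, against -0.0045 for all probe sets. Their summed intensity was 5139 and 5271 in HFD scAPs, against 2871 and 3045 in SD scAPs. Pecam1, the CD31 gene used in the depletion, was at 7.70 to 7.78 in HFD scAPs, against 6.25 to 6.38 in SD scAPs, and Cdh5 was at 8.74 to 8.88, against 6.95 to 7.01. The part of these markers in the scAP changes of the basement membrane genes was not tested. In viAPs 65.4% of the filtered set and 8.45% of all probe sets were called higher, and 4.47% of the filtered set lower. Of the endothelial markers 2 rose there, Eng by 0.93 and Tek by 0.69, and the median change of the 20 was -0.27, against -0.05 for all probe sets. The summed intensity was 3288 and 3024 in HFD viAPs, against 2652 and 2892 in SD viAPs, and Pecam1 was at 5.70 to 6.07, against 5.88 to 6.04, near the array medians. Of 15 pericyte and smooth muscle markers, 4 of them in the filter, 5 rose and 2 fell in viAPs, and 2 rose in scAPs. Their summed intensity was 3362 and 2912 in HFD viAPs, against 2327 and 2471 in SD viAPs, and 3497 and 3014 in HFD scAPs, against 2249 and 2322 in SD scAPs. Few bright genes weigh most in these sums, and Pdgfrb alone had 978 to 1026 in SD scAPs. The median change of the 15 was -0.02 in viAPs and 0.10 in scAPs. Rgs5, a pericyte gene, was at 4.95 to 5.78 in HFD viAPs, against 5.55 to 5.75 in SD viAPs, and at 6.71 to 6.87 in HFD scAPs, against 5.46 to 5.67 in SD scAPs. Without SD viAP replicate 4 the pericyte and smooth muscle list had 1 gene higher (Pdgfrb) and 1 lower (Abcc9) in viAPs, and 1 higher (Pdgfrb) in scAPs. The part of these markers was not tested either. Of 13 mesothelial and 10 leukocyte markers, 0 were called in the diet comparison of either depot. Of 10 markers of mature fat cells, 2 fell in viAPs (0 without SD viAP replicate 4), and of 13 precursor markers 3 rose in viAPs (5 without that array) and 1 in scAPs (2 without that array). The filter held 8 of the 13 precursor markers, and 65.4% of its probe sets were called higher in viAPs and 24.8% in scAPs. Of 8 Schwann cell markers, Pmp22 rose in viAPs, and Sox10 was at 5.81 to 6.23 on all arrays.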

How the data were processed

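The authors deposited a table of 35556 probe sets by 8 arrays that holds whole-number intensity values. RMA and Affymetrix Expression Console 1.1 are named in the submitters' processing notes, and neither the antilog nor the rounding is stated. Log2 of the deposited intensities was analysed without rescaling. Array medians were 5.58 to 5.75 in log2. Of the probe sets, 21789 carried 1 symbol, 1621 several and 12146 none, and only the first kind was used. The deposited table held no comparisons by the authors.

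All 8 arrays entered each limma fit (version 3.58.1, R 4.3.3, lmFit and eBayes, two-sided) with a mean for each group, leaving 4 residual degrees of freedom. Benjamini-Hochberg adjustment covered 2438 probe sets, namely those that passed log2 7 on 3 arrays or more and whose mean absolute deviation was among the highest tercile of such sets. Lama5 and Agrn, outside this filter, and list genes outside it were adjusted over all 21789. Procedures were tested on simulated data. The genes and lists were chosen with earlier results of these data known, in which Lama2 and Lama4 were among the changed genes. The paper on these arrays lists Lama2, Lama4, Lamb1 and Lamc1 in viAPs, and Lamb1 and Hspg2 in scAPs, as changed by more than 2-fold. Named from the lists were Col4a1, Col4a2 and, per list and comparison, at most 4 called genes with the largest change. Each of the 10 genes had 1 probe set. Promoter sequences are from RefSeq.

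Alternatives were another normalization, centring, filter, offset, fold threshold and set of arrays, and each array left out in turn. Figures were drawn with matplotlib 3.10.9.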

Additional observations from a re-analysis of the deposited data

Results flagged for a closer look

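For Col8a1 the diet change in viAPs exceeded that in scAPs by 2.93 (limma adjusted p = 0.00242), and 3.00 without SD viAP replicate 4 (adjusted p = 0.0561). For Prss12, both HFD arrays were below both SD arrays in viAPs and above both in scAPs, and the viAP change minus the scAP change was -1.34 (adjusted p = 0.353). For Itga6, which was under a log2 level of 7 on every array, the HFD arrays were ordered in the same way, and the difference of -0.74 was not called (adjusted p = 0.658).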

How the results depend on the processing

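The 8 genes inside the filter kept a positive change in both depots under every alternative run. The number called moved. In viAPs it was 8, and 4 with a fold of at least 2 also required, 5 after centring on expressed probe sets (chosen after seeing the data), and 0 to 8 with 1 array left out. In scAPs it was 6, and 2 with the fold, 0 after a second quantile normalization, 0 after centring on expressed probe sets, and 0 to 7 with 1 array left out. Between depots after HFD it was 0, and 1 with only the arrays compared. On SD, and for the difference of diet changes, it stayed 0 in every alternative run. The second quantile normalization left 690 filtered probe sets higher and 276 lower in viAPs, against 1595 and 109 before it, and 71.4% of calls higher against 93.6%. It took the median change of expressed probe sets to 0.07 from 0.30. Centring on expressed probe sets left 550 higher and 585 lower. In scAPs, 25 and 13 filtered probe sets were called higher under these settings, against 605 before. Signs turned only for changes that were not called. With median centring these were 0.073 (Lama5, viAP diet), 0.011 (Agrn, viAP diet) and 0.0064 (Lamb2, HFD depot). After quantile normalization they were 0.059 (Lama5, viAP diet), -0.045 (Agrn, scAP diet), -0.0051 (Lamb1, diet difference), -0.0017 (Nid1, HFD depot) and -0.016 (Nid2, HFD depot). Centred on expressed probe sets they were -0.17 (Agrn, scAP diet), -0.095 (Lamb1, diet difference), -0.019 (Nid2, HFD depot) and 0.017 (Nid1, SD depot). The cause was not tested. With 1 array left out, the diet change ran from -0.22 to 0.084 for Lama5 in viAPs, and for Agrn from -0.28 to 0.019 in viAPs and from -0.044 to 0.10 in scAPs. The diet difference ran from -0.27 to 0.32 for Lamb1, from -0.030 to 0.32 for Nid1 and from -0.29 to 0.010 for Hspg2. The HFD depot difference ran from -0.038 to 0.24 for Lama2, from -0.066 to 0.050 for Lamb2 and from -0.14 to 0.17 for Nid2, and the SD depot difference from -0.27 to 0.060 for Lama4 and from -0.25 to 0.099 for Nid1. Where a group kept 1 array, that array was assumed to vary like the other groups. Taking the mean of several probe sets was not run, since each gene had 1. No paired analysis was possible because the labels number the arrays 1 to 8 across groups, so that no groups share a number.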
